A study of Homo sapiens with 16 samples.

Results

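The 60 genes described here are the PAX-, SIX-, NKX-, LHX-, DLX-, IRX- and TBX-family transcription factors in a table of 23459 genes. They were taken by symbol, whatever their level: 9 PAX-, 6 SIX-, 13 NKX-, 8 LHX-, 6 DLX-, 6 IRX- and 12 TBX-family genes, with 1 T-box gene that fits the symbol pattern left out by the rule. RNA came from Be(2)-C and IMR5-75, established human neuroblastoma cell lines grown in RPMI medium with serum. Cells of each line received the solvent DMSO alone, 1 µM DAC over 72 h, 1 µM EPZ-6438 (EPZ from here on) over 96 h, or both drugs at these doses and times. Each of the 8 groups has 2 libraries, named by line, treatment and replicate number. DAC is not spelled out in the labels and is the common short name of decitabine, which depletes DNA methyltransferases. EPZ-6438 blocks the catalytic subunit EZH2 of the Polycomb repressive complex PRC2.

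PAX factors carry a paired domain, TBX factors a T-box and the other families a homeodomain, each of which binds DNA. They set regional and cell type identity in the embryo, and in most differentiated cells many of them lie in chromatin that carries the PRC2 mark on histone H3 lysine 27. Their promoters are usually rich in CpG dinucleotides, the sites at which DNA is methylated.

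Library totals ran from 9539557 to 14032155 counts, and no label ties replicate libraries to separate cultures. The p-values here therefore rest on the spread between libraries, which may be technical. Levels are counts-per-million (CPM) values on library sizes scaled by the TMM method, and 3 counts, the floor used here, equal 0.206 to 0.315 CPM. Of the noradrenergic markers that define this tumour type, HAND2 ranged from 352 to 806 CPM over the 16 libraries. TH, which encodes tyrosine hydroxylase, was at 0 CPM in its lowest library.

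Most of these regulators were present at low levels. Of the 60, 37 passed the filter on low counts and were tested, and 23 did not: 3 IRX, 2 LHX, 8 NKX, 6 PAX and 4 TBX genes. The untested genes had 2 to 61 counts over all 16 libraries, at most 20 in a single library, and none was at 0 in every library. Every SIX-family and DLX gene was tested. A library held counts for between 37 and 54 of the 60 genes. The CPM values of all 60 summed to 492 and 499.1 in Be(2)-C DMSO and to 541.2 and 574.1 with both drugs, while in IMR5-75 they summed to 279.8 and 291.9 in DMSO and to 413.3 and 410.8 with both drugs. The libraries with both drugs lay above those with DMSO in both lines. The Be(2)-C sums were 549 and 481.9 with DAC and 583.3 and 500.5 with EPZ. Those of IMR5-75 were 361.4 and 330 with DAC and 306.1 and 298.9 with EPZ. TBX3, at a mean of 272 CPM in Be(2)-C DMSO, made up the greater part of the sum there.

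**Figure D1:**
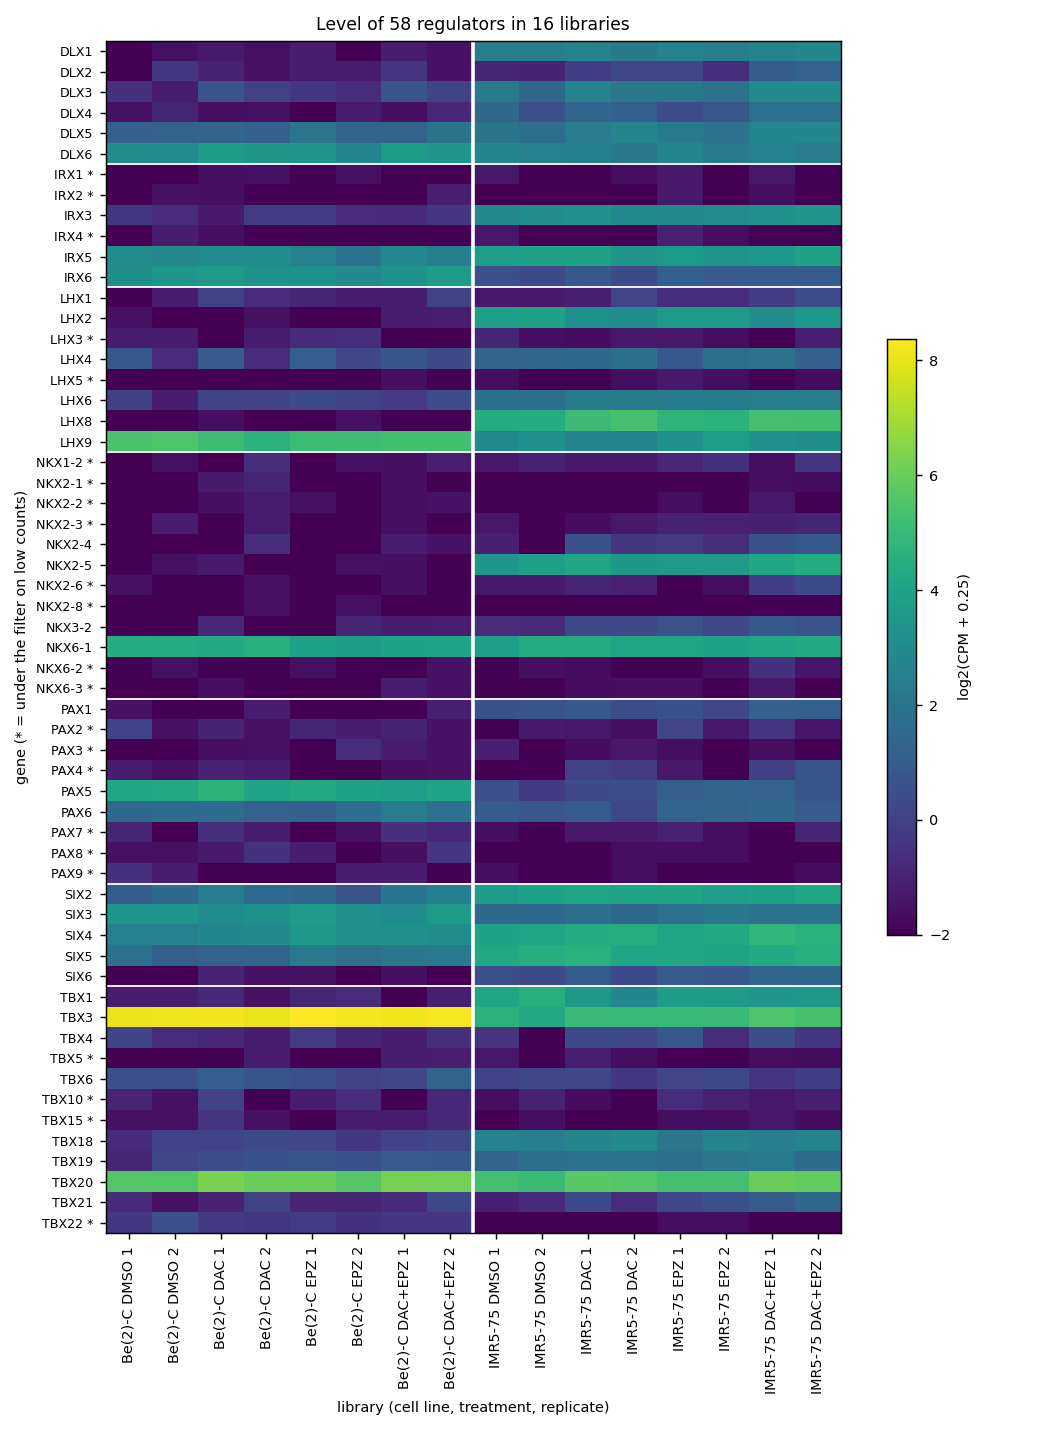
Level of 58 of the 60 genes (rows, by family) in each of the 16 libraries (columns), as log2 of CPM + 0.25, with the 23 genes under the filter marked by an asterisk. TBX3 in Be(2)-C is the brightest row, and most PAX and NKX rows stay near the bottom of the scale.

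The lines differed in which regulators they expressed without drug. In DMSO, 19 of the 37 tested genes were higher in IMR5-75 and 7 were higher in Be(2)-C by edgeR's quasi-likelihood test, where a call needs an adjusted p (Benjamini-Hochberg) under 0.05 here and throughout. Over all 15967 genes tested, 63.2% were called in this comparison (32% higher and 31.2% lower), against 70.3% of the members, so a difference between the lines was common to most genes. The members' median difference, IMR5-75 minus Be(2)-C, was 1.58 on the log2 scale, against -0.00849 over all genes. It was 1.37 with genes absent from 1 line set to their bound. Some of the 37 passed the filter only through IMR5-75 libraries, so the 19 genes and the median are not independent of the filter. When each line was fitted alone, 21 members passed the filter in Be(2)-C and 38 in IMR5-75. A line and every other property of its cells cannot be told apart here, and in bulk RNA fewer cells of a type cannot be told apart from less RNA per cell.

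Per kilobase of exon, the highest levels in Be(2)-C DMSO were those of TBX3 (45.7 CPM per kb) and TBX20 (25.8), and in IMR5-75 DMSO those of TBX20 (19.0), SIX2 (6.58) and NKX2-5 (5.92). TBX3, a T-box repressor that acts in limb, heart and mammary development, stood at 268 and 275 CPM in Be(2)-C and at 24.8 and 18.8 CPM in IMR5-75, a log2 difference of -3.64 ± 0.14 (SE, adjusted p = 1.18e-15). LHX9, a LIM-homeodomain factor of the gonad and forebrain, was also higher in Be(2)-C, at 42.3 and 45.9 CPM against 7.15 and 9.25 CPM. Genes higher in Be(2)-C also included TBX20, SIX3, IRX6 and PAX5, and in none of the 7 did the libraries of the lines overlap.

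Several genes of the other direction were close to absent in Be(2)-C. LHX8, a LIM-homeodomain factor of cholinergic forebrain neurons and oocytes, had 0 counts in both Be(2)-C DMSO libraries and 20.6 and 21.1 CPM in IMR5-75, which is at least 152-fold higher against a floor of 3 counts over the group. That bound was 75.6 and 76.6 without Be(2)-C DMSO 1 and 2. LHX2, a LIM-homeodomain factor of cortex and eye, had 1 count in Be(2)-C DMSO and 13.5 and 15.6 CPM in IMR5-75, a ratio of 317 with an exact binomial 95% interval from 56.5 to 12600, and 160 without Be(2)-C DMSO 2. Without Be(2)-C DMSO 1, which held that count, the ratio for LHX2 became a bound of at least 52.5-fold.

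The cardiac factor NKX2-5 likewise had 1 count in Be(2)-C DMSO against 10.5 and 14.2 CPM in IMR5-75 (ratio 269, interval 47.9 to 10600). It was 133 without Be(2)-C DMSO 1 and at least 45.1 without Be(2)-C DMSO 2. These intervals and floors cover counting error only. TBX1, the pharyngeal arch factor deleted in DiGeorge syndrome, stood at 17 and 22.3 CPM in IMR5-75 and at 0.181 and 0.184 CPM in Be(2)-C (log2 difference 6.67 ± 0.42, adjusted p = 9.33e-12). Genes higher in IMR5-75 also included SIX2, SIX4, SIX5, SIX6, DLX1, DLX3, DLX4, IRX3, IRX5, LHX6, NKX3-2, PAX1, TBX18 and TBX19. NKX3-2 lost its call without Be(2)-C DMSO 1 or 2 (adjusted p up to 0.0708), and TBX20 without IMR5-75 DMSO 2 (adjusted p = 0.117). The difference for TBX19, 2.22 on the log2 scale, was 1.59 without Be(2)-C DMSO 1 and 3.31 without Be(2)-C DMSO 2, and that for DLX3, 3.45, was 4.21 without Be(2)-C DMSO 1. Names in this comparison beyond the naming rule were chosen after their values were seen.

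**Figure D2:**
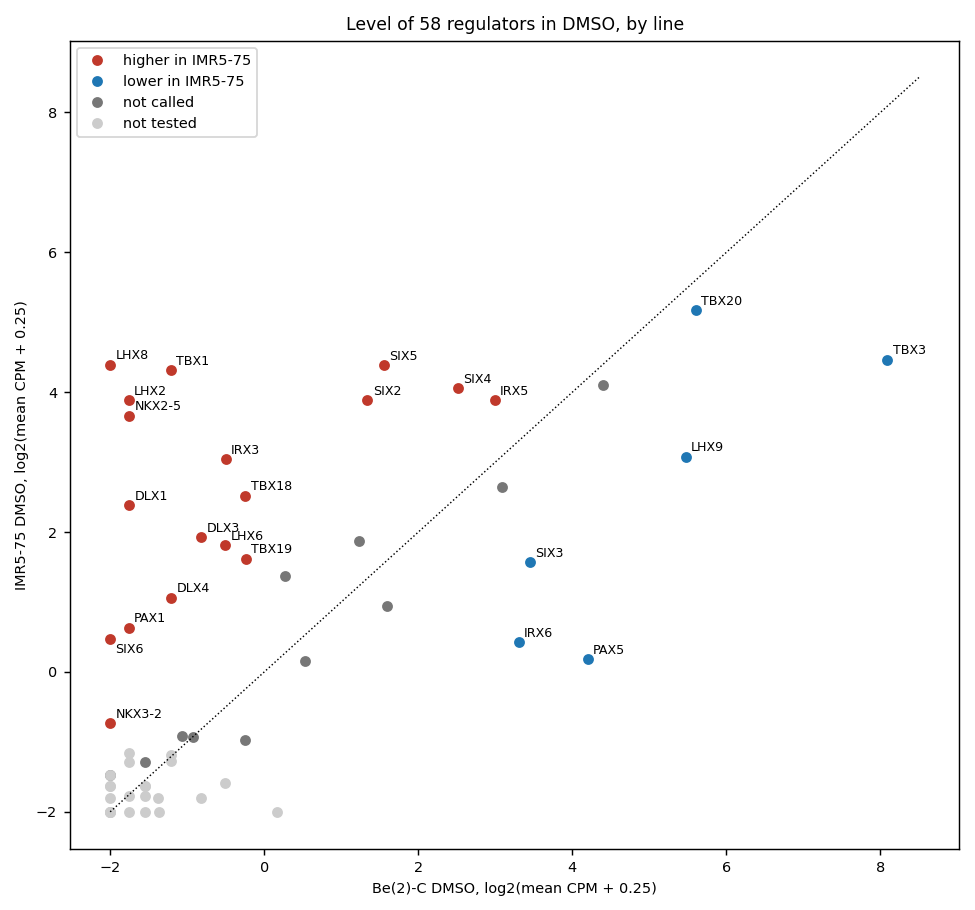
Mean level of 58 of the 60 genes in DMSO, Be(2)-C on the horizontal and IMR5-75 on the vertical axis, both as log2 of mean CPM + 0.25 (n = 2 libraries each), with called genes named. The 18 red genes lie above the dotted line of equal level, LHX8 among them at 0 in Be(2)-C, and the 6 blue genes lie below it.

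Against the DMSO group of the same line, more of the 37 genes were called in IMR5-75 than in Be(2)-C with DAC and with both drugs. With EPZ this was not so, and most calls were upward. When each line was fitted alone, 21 members passed the filter in Be(2)-C and 38 in IMR5-75, so fewer could be called in Be(2)-C. Tests of the difference between the lines called 0 members for DAC, 0 for EPZ and 1 for both drugs. DAC raised 1 gene in Be(2)-C (TBX20), where 6.7% of all genes were called (3.73% higher and 2.97% lower). EPZ raised SIX4 and lowered NKX6-1 there, with 10.2% of all genes called (5.35% higher and 4.85% lower). Both drugs raised 5 genes in Be(2)-C (TBX20, SIX4, TBX19, SIX2 and DLX3), with 23.7% of all genes called (13.2% higher and 10.4% lower). DAC raised 7 genes and lowered 2 in IMR5-75, with 33.7% of all genes called (19.9% higher and 13.8% lower). EPZ alone raised 1 (TBX3) in that line, with 1.98% called (1.63% higher and 0.344% lower). Both drugs raised 14 and lowered 2 in IMR5-75, with 46.2% of all genes called (25.7% higher and 20.4% lower). The 3 comparisons of a line share its DMSO libraries.

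Counted in both directions, the share of members called was below that of all genes in 5 of the 6 comparisons and near it for EPZ in IMR5-75 (2.7%). With both drugs in IMR5-75, 43.2% of the tested members were called, and in Be(2)-C 13.5%. By direction, 37.8% of the members were called higher and 5.41% lower with both drugs in IMR5-75, against the shares over all genes given above. Whether the members differed from other genes in direction was not tested. Genes that passed the filter only through a group in which they were high had to differ between groups. Among the called genes, DLX2, NKX2-4, NKX3-2, LHX1 and TBX21 had fewer than 10 counts, the filter's minimum, in every DMSO library. They entered the test through treated libraries, so their p-values are not independent of those levels.

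The median change of the 37 genes was above that of all genes in each of the 6 comparisons. With both drugs it was 0.66 on the log2 scale in IMR5-75 (0.0281 over all genes) and 0.47 in Be(2)-C (0.0545). With DAC it was 0.30 in IMR5-75 (0.0151) and 0.38 in Be(2)-C (0.0161), or 0.345 in Be(2)-C with the 3 genes at 0 in DMSO set to their bounds. With EPZ it was 0.18 in IMR5-75 (0.0102) and 0.15 in Be(2)-C (0.0236). With both drugs, 32 of the 37 fitted changes were above 0 in IMR5-75 and 28 in Be(2)-C. The share of all genes above 0 is not given here, and the 37 include genes that passed the filter through treated libraries. Whether these counts differ from those of other genes was not tested.

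Some of these counts rested on single libraries. In Be(2)-C the count of 5 genes with both drugs fell to 2 without DMSO 1 or DAC+EPZ 2, and to 3 without DMSO 2 or DAC+EPZ 1. The count of 2 under EPZ fell to 1 without Be(2)-C DMSO 1, DMSO 2 or EPZ 2. The call for TBX20 under DAC was lost without Be(2)-C DMSO 1, DMSO 2 or DAC 1. In IMR5-75 the count of 9 genes under DAC fell to 4 without DMSO 2, and that of 1 gene under EPZ fell to 0 without DMSO 2, EPZ 1 or EPZ 2. The 16 genes with both drugs in IMR5-75 became 12 to 16.

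**Figure D3:**
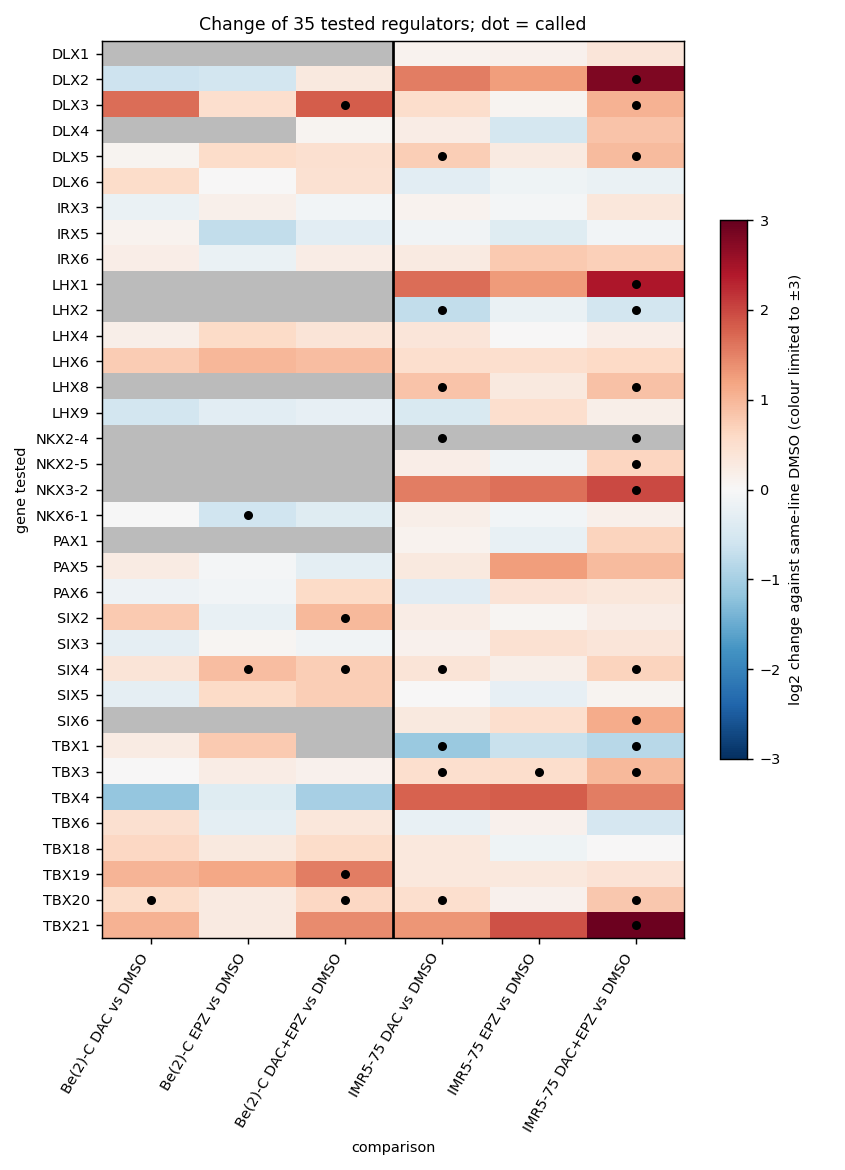
Change of 35 of the 37 tested genes (rows) against DMSO of the same line in 6 comparisons (columns), as log2 change by colour; black dots mark calls, and grey marks a gene with 3 or fewer counts in either group, for which no fitted change is shown. Dots gather in the IMR5-75 columns for DAC (8) and for both drugs (15).

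**Figure D4:**
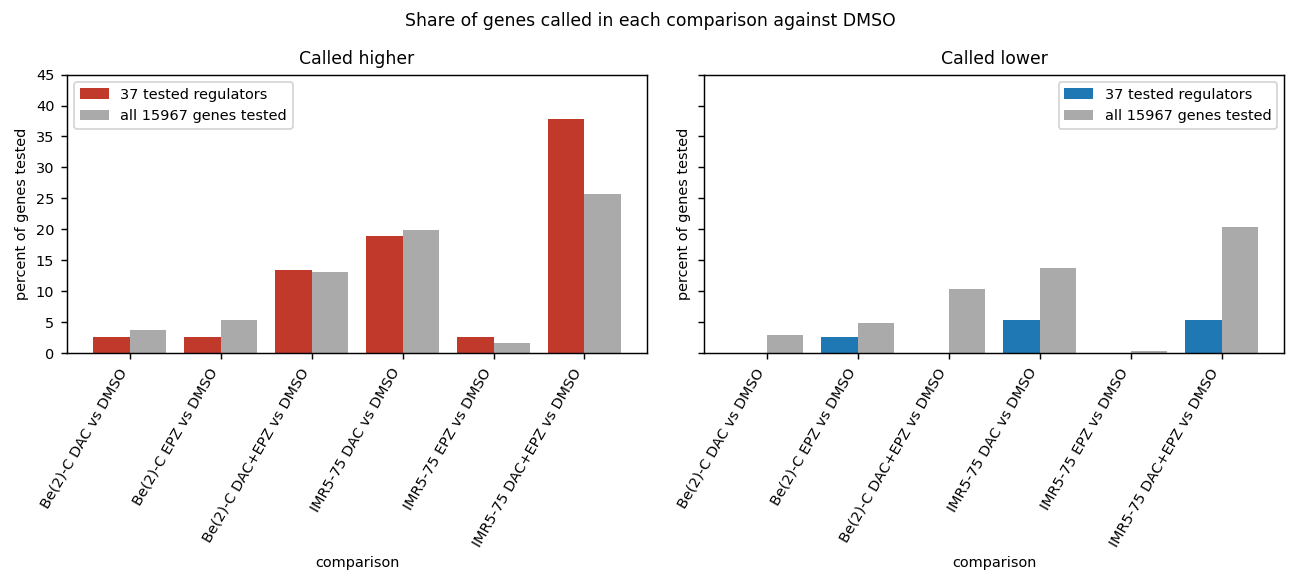
Percent of tested genes called higher (left) and lower (right) in the 6 comparisons against DMSO, for the 37 regulators (coloured bars) and all 15967 genes (grey bars). With both drugs in IMR5-75 the bars stand at 37.8% and 25.7% for higher, and at 5.41% and 20.4% for lower.

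SIX-family factors work with EYA coactivators in eye, ear, kidney, muscle and neural crest derivatives. SIX4, which acts in muscle and kidney development, was called in both lines. Be(2)-C libraries of SIX4 stood at 5.53 and 5.42 CPM in DMSO, 6.75 and 7.5 CPM with DAC, 11.3 and 9.72 CPM with EPZ, and 9.71 and 8.6 CPM with both drugs. Those of IMR5-75 stood at 15.9 and 16.9 CPM in DMSO, 21 and 22.1 CPM with DAC, 17.5 and 19.7 CPM with EPZ, and 28.1 and 24.1 CPM with both drugs. No treated library overlapped the DMSO libraries of its line. With 2 libraries per group this was common. In Be(2)-C both treated libraries lay above both DMSO libraries for 28.5% (DAC), 29.3% (EPZ) and 35.4% (both drugs) of all genes. In IMR5-75 the shares were 33.6%, 26.2% and 38%. Between 23.2% and 33% of all genes lay wholly below DMSO in the 6 comparisons. Lack of overlap, here and for the genes below, is to be read beside these shares.

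The rises of SIX4 in Be(2)-C were 0.94 ± 0.18 with EPZ (adjusted p = 0.0019) and 0.74 ± 0.19 with both drugs (adjusted p = 0.0058). In IMR5-75 they were 0.39 ± 0.15 with DAC (adjusted p = 0.0456) and 0.67 ± 0.15 with both drugs (adjusted p = 0.000747). The DAC call in IMR5-75 was lost without each of its 4 libraries in turn, with adjusted p up to 0.174. The call with both drugs in Be(2)-C was lost without DMSO 1, DMSO 2 or DAC+EPZ 1 (adjusted p up to 0.062).

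SIX6 is a factor of retina, hypothalamus and pituitary. It had 0 counts in both Be(2)-C DMSO libraries and at most 3 in any Be(2)-C library. IMR5-75 had 1.18 and 1.09 CPM in DMSO, 1.77 and 1.01 CPM with DAC, 1.73 and 1.49 CPM with EPZ, and 2.42 and 2.54 CPM with both drugs, which did not overlap DMSO. The rise with both drugs was 1.12 ± 0.39 (adjusted p = 0.0228), and the call was lost without each of the 4 libraries in turn (adjusted p up to 0.103). C14orf39 overlaps SIX6 on the other strand, and the strand setting of the counting is not given in the sources used here. In Be(2)-C, where SIX6 had at most 3 counts in a library, C14orf39 ranged from 3.58 CPM (DMSO 2) to 9.44 CPM (DAC+EPZ 1). Whether reads of 1 gene of the pair were counted for the other was not tested. C14orf39 stood at 0 and 0.0841 CPM in IMR5-75 DMSO, at 0.991 and 1.25 CPM with DAC (adjusted p = 0.000559) and at 1.17 and 1.03 CPM with both drugs (adjusted p = 0.000326), so both genes of the pair rose with both drugs.

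SIX2, which maintains nephron progenitors, was called in Be(2)-C with both drugs, at 3.83 and 5.24 CPM against 1.81 and 2.75 CPM in DMSO (0.98 ± 0.33, adjusted p = 0.0367). The groups did not overlap, and the call was lost without DMSO 1 or DAC+EPZ 2 (adjusted p up to 0.286). With DAC, the line had 4.94 and 2.87 CPM, and with EPZ 2.54 and 1.39 CPM. In IMR5-75 the lowest and highest SIX2 libraries were 12.8 CPM in DMSO and 18.6 CPM with both drugs. SIX3 and SIX5 had no call in the 6 comparisons.

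The promoters of SIX4 and SIX6 are shown because both genes were called in IMR5-75 with both drugs; capitals mark each CG, the dinucleotide that DNA methyltransferases act on, which reads the same on both strands. Each is the RefSeq sequence of assembly GRCh38.p14 from 250 bases before to 50 bases after the gene's start. SIX4 has 14 CG and SIX6 23, and of 14060 genes of the table with such a promoter, 32.8% and 51.0% have fewer, the median being 22. Over the 60 members, of which 41 have a promoter in the RefSeq table, no comparison of CG content was made. DNA methylation was not analysed here.
SIX4, chr14:60724302-60724601, minus strand: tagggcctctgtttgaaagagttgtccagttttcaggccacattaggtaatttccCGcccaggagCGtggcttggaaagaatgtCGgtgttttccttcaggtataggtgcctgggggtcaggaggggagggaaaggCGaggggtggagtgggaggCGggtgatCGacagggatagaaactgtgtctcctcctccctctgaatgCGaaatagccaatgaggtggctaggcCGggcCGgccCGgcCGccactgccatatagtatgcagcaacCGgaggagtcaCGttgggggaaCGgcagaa
SIX6, chr14:60508896-60509195, plus strand: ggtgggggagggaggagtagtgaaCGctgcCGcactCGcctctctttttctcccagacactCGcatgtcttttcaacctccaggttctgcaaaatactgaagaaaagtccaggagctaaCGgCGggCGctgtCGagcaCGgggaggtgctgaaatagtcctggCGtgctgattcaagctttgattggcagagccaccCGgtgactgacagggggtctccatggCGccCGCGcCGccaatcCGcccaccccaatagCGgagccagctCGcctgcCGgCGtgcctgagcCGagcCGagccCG

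DLX genes encode homeodomain factors of craniofacial skeleton, forebrain interneurons and placenta, and lie in pairs. All 6 were tested, and 3 were called in IMR5-75 with both drugs. DLX2, which specifies forebrain interneurons with its neighbour DLX1, stood in IMR5-75 at 0.295 and 0.252 CPM in DMSO, 0.708 and 0.936 CPM with DAC, 0.946 and 0.393 CPM with EPZ, and 1.83 and 2.13 CPM with both drugs. All treated libraries lay above DMSO, and the rise with both drugs was 2.81 ± 0.63 (7-fold, adjusted p = 0.000981). DLX2 ranged in Be(2)-C from 0 to 0.551 CPM, both of these in DMSO. DLX1 had no call against DMSO in either line.

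DLX3, a regulator of placenta, hair follicle and tooth, was called in both lines with both drugs. In IMR5-75 it stood at 4.57 and 2.52 CPM in DMSO, 6.16 and 4.13 CPM with DAC, 4.18 and 3.38 CPM with EPZ, and 7.27 and 7.56 CPM with both drugs (1.05 ± 0.28, adjusted p = 0.00439). Be(2)-C libraries of DLX3 stood at 0.453 and 0.184 CPM in DMSO, 1.32 and 0.741 CPM with DAC, 0.545 and 0.37 CPM with EPZ, and 1.42 and 0.839 CPM with both drugs (1.82 ± 0.65, adjusted p = 0.0456). The groups with both drugs did not overlap DMSO in either line. The IMR5-75 call was lost without DMSO 2, the lower DMSO library (adjusted p = 0.0917). The Be(2)-C call was lost without each of the 4 libraries in turn (adjusted p up to 0.304), and the change was 2.57 without DMSO 1.

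DLX5, a bone and branchial arch factor, stood in IMR5-75 at 3.69 and 3.11 CPM in DMSO, 4.96 and 6.39 CPM with DAC, 4.57 and 3.62 CPM with EPZ, and 6.6 and 6.67 CPM with both drugs. DAC and both drugs lay above DMSO without overlap. The rises were 0.73 ± 0.27 with DAC (adjusted p = 0.0391) and 0.96 ± 0.26 with both drugs (adjusted p = 0.00473). The DAC call was lost without DMSO 1, DMSO 2 or DAC 2 (adjusted p up to 0.231). DLX5 ranged in Be(2)-C from 1.99 CPM in DMSO to 3.9 CPM with EPZ and was not called.

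The promoter of DLX2 is shown because this gene had the greatest change of the family in IMR5-75. It has 30 CG, in capitals, and 69.7% of promoters have fewer.
DLX2, chr2:172102851-172103150, minus strand: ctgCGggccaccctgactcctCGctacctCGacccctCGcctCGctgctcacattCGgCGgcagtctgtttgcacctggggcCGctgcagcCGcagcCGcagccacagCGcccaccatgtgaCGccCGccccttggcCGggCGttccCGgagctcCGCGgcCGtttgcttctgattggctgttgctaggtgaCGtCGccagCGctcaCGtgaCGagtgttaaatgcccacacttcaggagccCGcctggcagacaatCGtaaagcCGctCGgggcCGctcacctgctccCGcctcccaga

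NKX genes encode homeodomain factors of ventral neural tube, heart, gut and endocrine organs. Of 13, 5 were tested. NKX2-4, expressed in the embryonic hypothalamus, had 3 counts in IMR5-75 DMSO 1 and 0 in DMSO 2. In CPM it stood at 0.221 and 0 in DMSO, 1.27 and 0.546 with DAC, 0.631 and 0.393 with EPZ, and 1.25 and 1.58 with both drugs, so every treated library lay above DMSO. The ratio was 7.87 with DAC (95% interval 2.4 to 40.7, adjusted p = 0.0187) and 12 with both drugs (3.84 to 60.9, adjusted p = 0.00185).

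For NKX2-4 with DAC, the call was lost without IMR5-75 DMSO 2 (ratio 4.2) and without DAC 1 (ratio 4.63), and without DMSO 1, which held the 3 counts, the gene was at least 3.68-fold higher. With both drugs it was at least 5.63-fold higher without DMSO 1, and the ratio was 6.42 without DMSO 2. NKX2-4 had 0 counts in Be(2)-C DMSO and EPZ and at most 4 in any library of that line.

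NKX3-2, a factor that promotes cartilage formation in the sclerotome, stood in IMR5-75 at 0.369 and 0.336 CPM in DMSO, 0.991 and 1.09 CPM with DAC, 1.34 and 0.944 CPM with EPZ, and 1.54 and 1.31 CPM with both drugs. All treated libraries were above DMSO, and the rise with both drugs was called (1.98 ± 0.59, adjusted p = 0.00999). It lost the call without DMSO 1 or DMSO 2 (adjusted p up to 0.0562). The gene had 0 counts in Be(2)-C DMSO and at most 4 in any library of that line.

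NKX2-5 stood in IMR5-75 at 10.5 and 14.2 CPM in DMSO, 17.2 and 11 CPM with DAC, 11.6 and 11.5 CPM with EPZ, and 17.8 and 21.1 CPM with both drugs. Only the last group was clear of DMSO (0.66 ± 0.22, adjusted p = 0.0193), and the call was lost without DMSO 1 or DAC+EPZ 2 (adjusted p up to 0.157). No Be(2)-C library had more than 2 counts of NKX2-5. NKX6-1, which specifies motor neuron progenitors and beta cells, was the single member called lower in Be(2)-C. It stood at 21.1 and 20.5 CPM in Be(2)-C DMSO, 18.7 and 22.3 CPM with DAC, 15 and 12.7 CPM with EPZ, and 16 and 16.2 CPM with both drugs, and it fell by 0.59 ± 0.18 on the log2 scale with EPZ (adjusted p = 0.0461). That call was lost without each of the 4 libraries (adjusted p up to 0.216). NKX6-1 ranged from 13.4 to 20.5 CPM in IMR5-75, and its DMSO libraries spanned that whole range.

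NKX2-4 lies beside NKX2-2 and PAX1 on chromosome 20. Its promoter, shown as that of the NKX gene with the highest ratio, has 19 CG in capitals, and 41.4% of promoters have fewer.
NKX2-4, chr20:21397477-21397776, minus strand: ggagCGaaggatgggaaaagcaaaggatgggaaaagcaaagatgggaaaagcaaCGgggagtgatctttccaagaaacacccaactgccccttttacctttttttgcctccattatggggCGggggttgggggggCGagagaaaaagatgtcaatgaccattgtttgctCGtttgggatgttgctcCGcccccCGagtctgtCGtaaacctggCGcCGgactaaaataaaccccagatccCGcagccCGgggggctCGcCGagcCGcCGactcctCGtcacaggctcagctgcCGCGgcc

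LHX genes encode LIM-homeodomain factors, which act with LDB cofactors in neuron and organ identity. Of 8, 6 were tested. LHX8 stood in IMR5-75 at 20.6 and 21.1 CPM in DMSO, 34.7 and 40.4 CPM with DAC, 26.6 and 24.1 CPM with EPZ, and 38.7 and 37.4 CPM with both drugs. No treated library overlapped DMSO, and the rises with DAC (0.85 ± 0.15, adjusted p = 0.000311) and with both drugs (0.87 ± 0.15, adjusted p = 0.000135) were of like size. No Be(2)-C library had more than 1 count of LHX8. LHX8 kept both calls without each library in turn.

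LHX2 moved the other way in IMR5-75, at 13.5 and 15.6 CPM in DMSO, 9.06 and 8.27 CPM with DAC, 12.2 and 12.9 CPM with EPZ, and 8.51 and 11.3 CPM with both drugs. All treated libraries were below DMSO. It fell by 0.74 ± 0.20 with DAC (adjusted p = 0.0066) and by 0.55 ± 0.19 with both drugs (adjusted p = 0.0256). The first call was lost without DMSO 2 (adjusted p = 0.0545) and the second without DMSO 1, DMSO 2 or DAC+EPZ 1 (adjusted p up to 0.31). LHX2 had at most 2 counts in any Be(2)-C library.

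LHX1, a factor of kidney, head organizer and Purkinje cells, stood in IMR5-75 at 0.147 and 0.168 CPM in DMSO, 0.212 and 0.858 CPM with DAC, 0.394 and 0.393 CPM with EPZ, and 0.66 and 1.1 CPM with both drugs. Every treated library was above DMSO, where the group held 4 counts, and the rise with both drugs was 2.42 ± 0.82 (adjusted p = 0.0196). It lost the call without DMSO 1, DMSO 2 or DAC+EPZ 2 (adjusted p up to 0.137). Its range in Be(2)-C was 0 CPM in DMSO to 0.839 CPM with both drugs. LHX9, named for its level, ranged from 24.8 to 45.9 CPM in Be(2)-C and was not called against DMSO in either line. Every treated Be(2)-C library of LHX9 lay below both DMSO libraries.

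TBX genes gave members called in both directions. TBX20, a cardiac and hindbrain motor neuron factor, was high in both lines and called in both. Its Be(2)-C levels were 48.4 CPM in each DMSO library, 78.3 and 63.2 CPM with DAC, 66.5 and 49.9 CPM with EPZ, and 75 and 73 CPM with both drugs. Its IMR5-75 levels were 38.4 and 33 CPM in DMSO, 52.6 and 48.9 CPM with DAC, 39.3 and 39 CPM with EPZ, and 66.3 and 57.9 CPM with both drugs. No treated library fell to the DMSO level of its line.

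The rises of TBX20 were 0.55 ± 0.14 with DAC (adjusted p = 0.0214) and 0.61 ± 0.14 with both drugs (adjusted p = 0.00315) in Be(2)-C. In IMR5-75 they were 0.51 ± 0.14 (adjusted p = 0.00917) and 0.80 ± 0.14 (adjusted p = 0.000102). Beside the loss in Be(2)-C given above (adjusted p up to 0.291), the DAC call in IMR5-75 was lost without DMSO 2 or DAC 1 (adjusted p up to 0.114).

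TBX3 rose in IMR5-75 with every treatment, from 24.8 and 18.8 CPM in DMSO to 31.7 and 30.6 CPM with DAC, 30.8 and 32 CPM with EPZ, and 45.5 and 40.4 CPM with both drugs. No treated library overlapped DMSO. The changes were 0.51 ± 0.13 (adjusted p = 0.00531), 0.53 ± 0.13 (adjusted p = 0.0443) and 0.98 ± 0.13 (adjusted p = 3.88e-06). TBX3 stood in Be(2)-C at 286 and 258 CPM with DAC, 331 and 302 CPM with EPZ, and 285 and 310 CPM with both drugs, with no call. The change with both drugs differed between the lines by 0.85 ± 0.18 (adjusted p = 0.00264), the single member called for such a difference, where 11.1% of all genes were called. A second member was called without IMR5-75 DMSO 1, DMSO 2 or DAC+EPZ 1, for a count of 2. Without IMR5-75 DMSO 2 the DAC and EPZ calls of TBX3 were lost (adjusted p = 0.142 and 0.555), and the EPZ call also without EPZ 1 or EPZ 2.

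TBX21, the T-bet factor of type 1 T helper cells, stood in IMR5-75 at 0.221 and 0.336 CPM in DMSO, 0.991 and 0.39 CPM with DAC, 0.946 and 1.18 CPM with EPZ, and 1.76 and 2.61 CPM with both drugs. Its rise with both drugs was 2.95 ± 0.58 (7.72-fold, adjusted p = 0.000297), with no overlap between treated and DMSO libraries. Its range in Be(2)-C was 0.0918 CPM in DMSO to 0.944 CPM with both drugs. Of 10 haematopoietic markers, summing to 5.16 and 5.22 CPM in IMR5-75 DMSO and to 10.1 and 10.8 CPM with both drugs, 2 of 3 tested rose: PTPRC (3.38 ± 0.56, adjusted p = 4.37e-05), which encodes CD45, and CD68 (0.69 ± 0.23, adjusted p = 0.0185). The CD68 call was lost without IMR5-75 DMSO 1, DMSO 2 or DAC+EPZ 2 (adjusted p up to 0.14), which leaves 1 called. Of all genes tested, 25.7% rose with both drugs in IMR5-75. CD3E, a T cell marker, was at 0 in DMSO, and 5 of the 10 markers were at or under the floor with both drugs. Their part in the rise of TBX21 was not tested.

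TBX1 was lower in IMR5-75 under treatment, at 17 and 22.3 CPM in DMSO, 11.3 and 6.86 CPM with DAC, 12.5 and 12.3 CPM with EPZ, and 10.6 and 11.4 CPM with both drugs, with no overlap. It fell by 1.10 ± 0.22 with DAC (adjusted p = 0.000535) and by 0.83 ± 0.21 with both drugs (adjusted p = 0.00315), and the EPZ difference of -0.66 ± 0.21 was not called (adjusted p = 0.121). TBX1 overlaps GNB1L on the other strand. In Be(2)-C, where TBX1 was close to absent, GNB1L ranged from 1.97 CPM (DAC 1) to 3.17 CPM (DMSO 1). Whether reads of 1 gene of this pair were counted for the other was not tested. GNB1L fell by 0.80 ± 0.25 with DAC in IMR5-75 (adjusted p = 0.0195), and its difference with both drugs was -0.57 ± 0.25 (adjusted p = 0.0649). The DAC call of GNB1L was lost without DMSO 2 or DAC 2 (adjusted p up to 0.196). TBX1 had at most 4 counts in any Be(2)-C library.

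TBX19, which drives the corticotroph lineage of the pituitary, was called in Be(2)-C with both drugs. It stood there at 0.272 and 0.918 CPM in DMSO, 1.15 and 1.3 CPM with DAC, 1.36 and 1.3 CPM with EPZ, and 1.78 and 1.68 CPM with both drugs, all treated libraries above DMSO. The rise with both drugs was 1.53 ± 0.49 (adjusted p = 0.0258). It was 0.89 without DMSO 1 and 2.62 without DMSO 2, and the call was lost without DMSO 1, DAC+EPZ 1 or DAC+EPZ 2 (adjusted p up to 0.293). TBX19 ranged in IMR5-75 from 2.36 CPM in DMSO to 4.48 CPM with both drugs.

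Promoters of TBX21, which rose, and TBX1, which fell, are set side by side with CG in capitals. They hold 23 and 22 CG, close to the median of 22 over all promoters, and 51.0% and 48.4% of promoters have fewer.
TBX21, chr17:47732986-47733285, plus strand: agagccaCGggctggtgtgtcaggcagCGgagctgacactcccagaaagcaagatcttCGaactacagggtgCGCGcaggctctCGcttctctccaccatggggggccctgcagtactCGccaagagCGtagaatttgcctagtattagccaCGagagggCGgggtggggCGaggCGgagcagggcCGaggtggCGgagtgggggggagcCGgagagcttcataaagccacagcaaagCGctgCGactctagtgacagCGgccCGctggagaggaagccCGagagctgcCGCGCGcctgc
TBX1, chr22:19756453-19756752, plus strand: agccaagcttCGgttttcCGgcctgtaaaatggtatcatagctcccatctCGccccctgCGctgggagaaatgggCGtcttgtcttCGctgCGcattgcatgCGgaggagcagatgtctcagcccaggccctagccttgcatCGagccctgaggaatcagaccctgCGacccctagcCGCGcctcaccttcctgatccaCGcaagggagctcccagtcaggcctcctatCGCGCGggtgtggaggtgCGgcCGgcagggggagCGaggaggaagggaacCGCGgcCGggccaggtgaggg

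**Figure D5:**
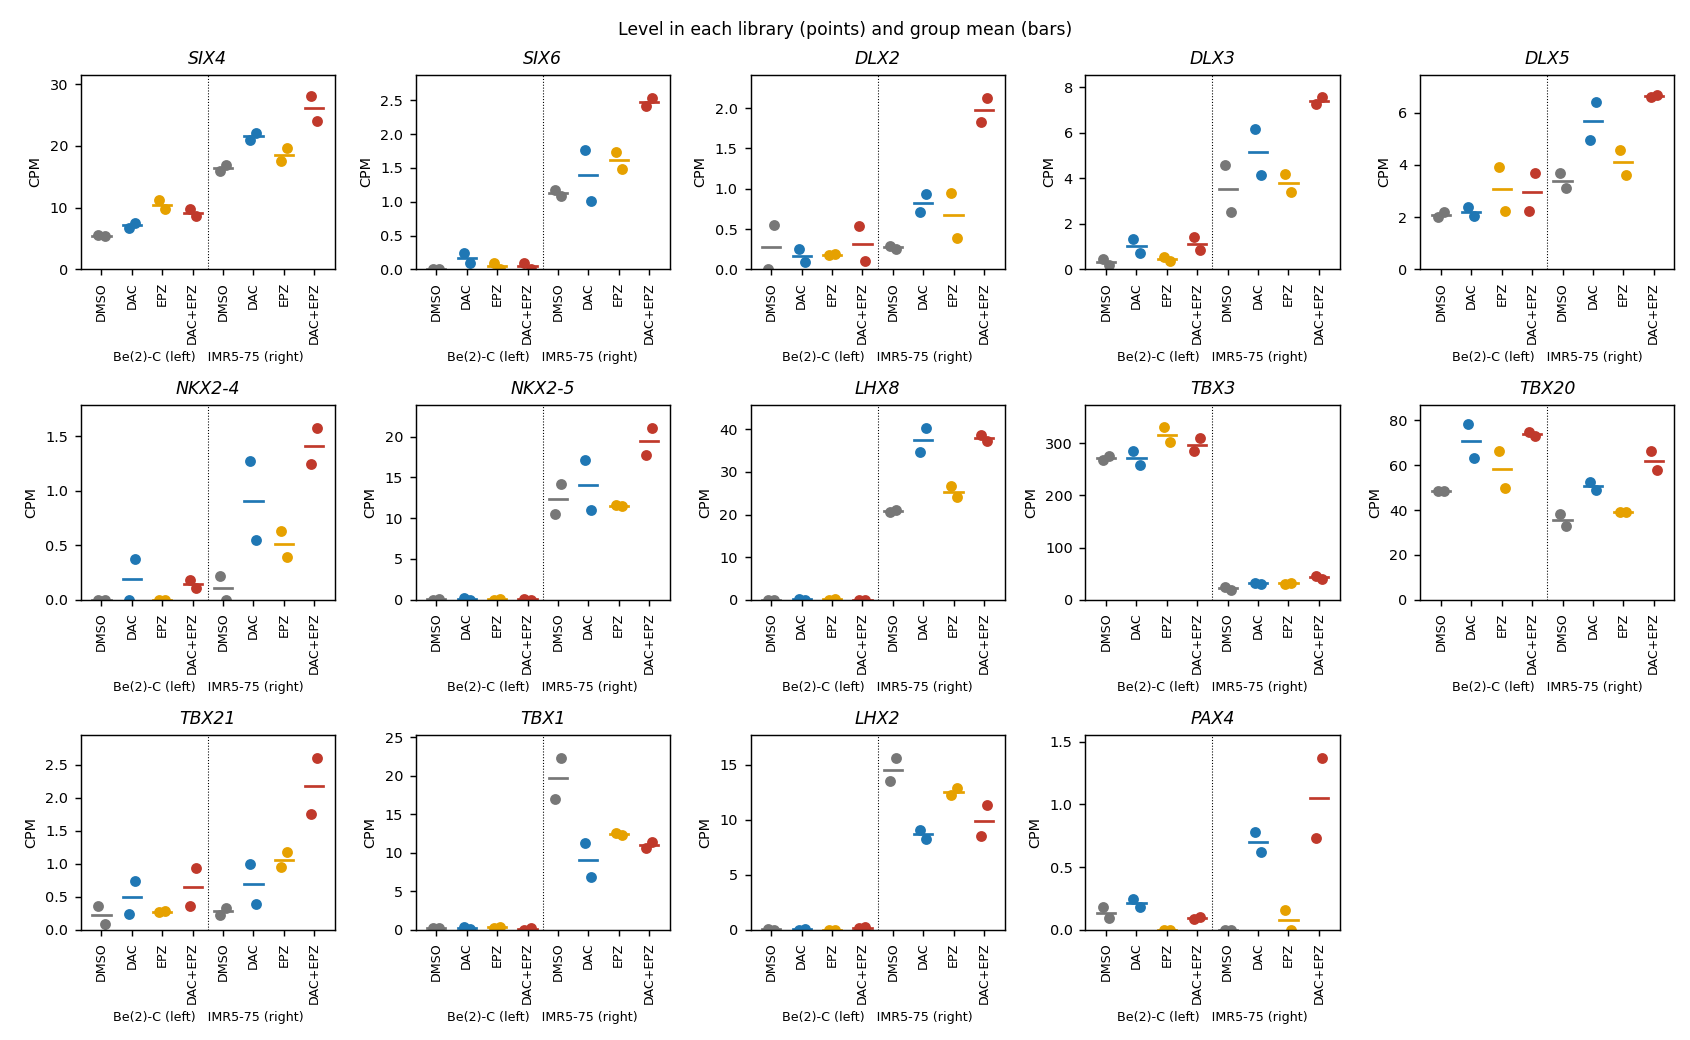
CPM of 14 genes in each library (points) with the group mean (bars), Be(2)-C left and IMR5-75 right of the dotted line; each vertical axis starts at 0 and has its own scale. LHX8 climbs from 20.6 and 21.1 to 38.7 and 37.4 CPM in IMR5-75, TBX1 and LHX2 fall there, and TBX3 is near 300 CPM in Be(2)-C.

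PAX and IRX genes had no call against DMSO. PAX factors act in eye, kidney, B cells, somites and pancreas, and IRX factors in neural plate and heart. Of 9 PAX genes, 3 were tested (PAX1, PAX5 and PAX6), and of 6 IRX genes, 3 (IRX3, IRX5 and IRX6). PAX5, the B cell commitment factor, stood at 17.2 and 19 CPM in Be(2)-C DMSO and at 1.18 and 0.589 CPM in IMR5-75 DMSO. Its differences in IMR5-75 were 1.26 ± 0.43 with EPZ (adjusted p = 0.144) and 0.94 ± 0.44 with both drugs (adjusted p = 0.085). For IRX5, a difference of -0.75 ± 0.26 with EPZ in Be(2)-C had an adjusted p of 0.0772. These genes, and PAX4 and TBX22 below, were singled out after their values were seen.

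Among the 23 genes under the filter, PAX4, which specifies insulin-producing beta cells, had the highest total (61 counts). It had 0 counts in both IMR5-75 DMSO libraries, 11 and 8 with DAC, 2 and 0 with EPZ, and 10 and 20 with both drugs. That is at least 5.98-fold higher with DAC and at least 9.03-fold higher with both drugs. The bounds were 2.79 and 3.19 with DAC, and 4.22 and 4.81 with both drugs, without IMR5-75 DMSO 1 and 2 in turn. Among the 6 comparisons against DMSO, fitted without the filter, PAX4 was the single one of these 23 called, in these 2 of them. Its Be(2)-C libraries had at most 3 counts, with 2 and 1 in DMSO. TBX22, a palate factor, had 5 to 13 counts in every Be(2)-C library and at most 1 in any IMR5-75 library.

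The promoter of PAX4 has 2 CG, in capitals, and 6.1% of promoters have fewer, which puts it far below the others printed here.
PAX4, chr7:127618093-127618392, minus strand: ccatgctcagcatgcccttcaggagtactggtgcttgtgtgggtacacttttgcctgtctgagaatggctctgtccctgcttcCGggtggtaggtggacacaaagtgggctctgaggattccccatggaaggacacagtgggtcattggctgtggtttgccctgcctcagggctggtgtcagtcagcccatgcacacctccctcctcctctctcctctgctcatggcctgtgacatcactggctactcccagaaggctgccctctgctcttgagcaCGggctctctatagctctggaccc

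Combining the drugs was also compared with each drug alone. Both drugs against EPZ in IMR5-75 gave 10 genes higher and 0 lower, with 37.6% of all genes called (20.7% higher and 16.9% lower). They included TBX20, LHX8, DLX4, TBX3, DLX3, SIX4, NKX2-5, DLX2 and DLX5. TBX20 was 0.67 higher (adjusted p = 0.000883), and 7 to 8 genes were called when a library was left out. For DLX2 the difference of 1.55 (adjusted p = 0.0246) was 2.34 without IMR5-75 EPZ 1, and the call was lost without EPZ 2, DAC+EPZ 1 or DAC+EPZ 2. Calls were also lost for LHX8 and DLX3 without EPZ 2 (adjusted p = 0.0536 and 0.0875), for TBX3 and SIX4 without EPZ 1 or DAC+EPZ 1 (up to 0.057 and 0.0876), for NKX2-5 without EPZ 1, EPZ 2 or DAC+EPZ 2 (up to 0.0852), for DLX4 without EPZ 1 (0.0658) and for DLX5 without EPZ 2, DAC+EPZ 1 or DAC+EPZ 2 (up to 0.21). TBX20 kept its call.

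Both drugs against DAC gave 0 calls among the members in either line by edgeR, with 1.94% of all genes called in IMR5-75 and 5.44% in Be(2)-C. At an unadjusted p under 0.05 there were 8 genes in IMR5-75, all higher, and 4 in Be(2)-C, and the DESeq2 Wald test called 1 in each line. Both drugs against EPZ in Be(2)-C likewise gave 0 by edgeR, with 4.21% of all genes called, 5 at an unadjusted p under 0.05 and 1 by DESeq2. Without Be(2)-C EPZ 1 edgeR called 2.

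No member passed the test for a joint effect of the drugs that differs from the sum of the single changes. By edgeR there were 0 in each line, with 0.257% of all genes called in Be(2)-C and 0.0251% in IMR5-75. At an unadjusted p under 0.05 there were 2 members in each line, and the DESeq2 Wald test called 0 in each. The change under DAC or EPZ alone also differed between the lines for 0 members by edgeR and by DESeq2, with 3 and 5 at an unadjusted p under 0.05, where 6.19% and 1.19% of all genes were called. Without IMR5-75 DMSO 1 edgeR called 2 members for DAC.

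Of the 76 regulators of other families often bound by Polycomb, 50 were tested, and with both drugs in IMR5-75 19 rose and 6 fell (median 0.38), beside 25.7% of all genes tested that rose and 20.4% that fell (median 0.0281). MSX1 and MSX2, homeodomain factors of neural crest and limb, rose by 2.77 ± 0.20 (adjusted p = 8.73e-10) and 2.20 ± 0.18 (adjusted p = 3.68e-09). With both drugs in Be(2)-C 4 of the 50 rose and 5 fell (median 0.068), beside 23.7% of all genes called in either direction (median 0.0545). Of the 11 PRC2 subunits, all tested, 8 fell and 1 rose with both drugs in IMR5-75 (median -0.56), and 5 fell and 0 rose in Be(2)-C (median -0.29), where 3 fell without DAC+EPZ 2. Over all genes, 10.4% fell and 13.2% rose with both drugs in Be(2)-C. With DAC 6 subunits fell and 0 rose in IMR5-75 (13.8% and 19.9% of all genes), and 1 fell and 0 rose in Be(2)-C (2.97% and 3.73%). With EPZ 0 were called in IMR5-75 (1.98% of all genes), and 3 fell and 1 rose in Be(2)-C (4.85% and 5.35%). The counts for DAC in Be(2)-C and EPZ in IMR5-75 are near those shares, so that they are no result about these subunits.

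EZH2 fell by 0.56 ± 0.10 in IMR5-75 (adjusted p = 0.000147) and by 0.71 ± 0.11 in Be(2)-C (adjusted p = 4.77e-05) with both drugs, and by 0.57 ± 0.11 in Be(2)-C with EPZ (adjusted p = 0.00127). PHF19, a PRC2 accessory subunit that binds methylated H3 lysine 36, fell by 1.19 ± 0.13 in IMR5-75 with both drugs (adjusted p = 2.3e-07), as did the histone chaperone RBBP7, by 0.74 ± 0.10 (adjusted p = 5.13e-06). Of 17 PRC1 subunits, 2 rose and 4 fell in IMR5-75 with both drugs, where 46.2% of all genes were called, so that this count is no result about these subunits. PCGF6 fell by 0.89 ± 0.13 (adjusted p = 1.31e-05) and PCGF5 rose by 1.00 ± 0.19 (adjusted p = 0.000189).

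Of 18 protein partners of PAX, LHX and SIX-family factors, 17 were tested, and with both drugs in IMR5-75 6 rose and 4 fell, beside 25.7% and 20.4% of all genes. Over the list, 5 were called in place of 10 without DMSO 2, and 6 without DAC+EPZ 2. LDB2, a cofactor that LIM-homeodomain proteins bind, fell there by 1.73 ± 0.20 (adjusted p = 5.81e-07). LMO4, which competes with LIM-homeodomain proteins for LDB cofactors, rose in Be(2)-C with both drugs by 0.96 ± 0.12 (adjusted p = 4.97e-06).

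Markers of other cell types moved in the same libraries. With both drugs 25.7% of all genes tested rose and 20.4% fell in IMR5-75, and 13.2% rose and 10.4% fell in Be(2)-C. With DAC in IMR5-75 the shares were 19.9% and 13.8%. Counts of markers here and in the next paragraph stand beside these shares. The 10 Schwann and glial markers summed to 10.8 and 11.2 CPM in IMR5-75 DMSO, 25.8 and 24.1 CPM with DAC, 16.2 and 14.3 CPM with EPZ, and 34.5 and 34.3 CPM with both drugs. With both drugs 5 of 7 tested rose, with the receptor gene ERBB3 up by 3.22 ± 0.37 (adjusted p = 4.55e-07), and CDH19 was at 0 in DMSO. Their sum in Be(2)-C was 11.1 and 8.81 CPM in DMSO and 15.2 and 14.2 CPM with both drugs, and PMP2 was at 0 in DMSO.

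The 7 epithelial markers summed to 8.79 and 5.78 CPM in Be(2)-C DMSO and to 29.2 and 32.4 CPM with both drugs, where 5 of 5 tested rose, KRT8 by 3.44 ± 0.44 (adjusted p = 9.38e-06). Without Be(2)-C DMSO 2, 3 were called and KRT8 was 4.29 higher. Their sums in IMR5-75 were 3.1 and 1.18 CPM in DMSO, with KRT8 at 0, and 4.99 and 5.43 CPM with both drugs, and 1 rose and 1 fell of 5 tested. EPCAM rose by 3.87 ± 0.52 (adjusted p = 3.85e-06). KRT19, a keratin chosen after its values were seen, fell from 0.558 ± 0.67 CPM (SD, n = 2) to 0 (edgeR, adjusted p = 0.00775, and 0.317 without DMSO 1). The 10 mesenchymal-type markers summed to 450 and 470 CPM in Be(2)-C DMSO and 713 and 744 CPM with both drugs, and to 1150 and 1040 CPM in IMR5-75 DMSO and 1400 and 1350 CPM with both drugs. Of the 10, 4 rose and 1 fell in Be(2)-C with both drugs, and in IMR5-75 5 rose and 0 fell with DAC and 7 rose and 1 fell with both. FN1 rose in Be(2)-C with both drugs by 3.19 ± 0.16 (adjusted p = 3.52e-11) and NOTCH2 in IMR5-75 with DAC by 2.31 ± 0.26 (adjusted p = 7.61e-07). The falling genes, chosen after their values were seen, were the transcription factor TWIST1 in Be(2)-C (by 0.55 ± 0.13, adjusted p = 0.00377) and YAP1, an effector of the Hippo pathway, in IMR5-75 (by 0.61 ± 0.16, adjusted p = 0.00425). YAP1 lost its call without DMSO 1 (adjusted p = 0.0993) or DAC+EPZ 2 (adjusted p = 0.128). TWIST1 rose in IMR5-75 with both drugs by 0.47 ± 0.13 (adjusted p = 0.00603), with adjusted p = 0.104 without DMSO 1 and 0.059 without DAC+EPZ 2. The 12 noradrenergic markers summed to 3290 and 3730 CPM in IMR5-75 DMSO and 3140 and 3240 CPM with both drugs, where 4 of the 12 rose and 3 fell. That count is near the shares over all genes, so that it is no result about these markers. CHGB rose by 2.68 ± 0.15 (adjusted p = 1.24e-11) and CHGA by 2.14 ± 0.13 (adjusted p = 4.44e-11). The part of these markers in the changes of the 60 genes was not tested.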

How the data were processed

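The deposited table holds raw counts per gene symbol that the authors made for each of the 16 libraries. Per the labels' protocols, total RNA was depleted of ribosomal RNA, and a directional kit and single-end reads were used. TopHat2 2.0.5, HTSeq 0.5.3p9, DESeq2 (no version) and the build hg19 stand in the submitters' processing notes; neither gene annotation nor strand setting is given in the sources used here. Genes were kept by filterByExpr of edgeR 4.0.16 under R 4.3.3 (15967 of 23459), and after TMM scaling all 8 groups entered a single quasi-likelihood model with 8 residual degrees of freedom. Benjamini-Hochberg adjustment ran over all genes tested. The script was tested on simulated data. Fold bounds against 0 counts use a floor of 3 counts over the group, and ratios with 1 to 3 counts have exact binomial 95% intervals.

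Members and lists were chosen with earlier results of these data known. Named with values are members called in a treatment against DMSO, in an interaction or for a difference between lines, the 3 highest by CPM in DMSO of each line, the 2 called genes of each other list with the smallest adjusted p, and EZH2; a few genes that meet this rule are not reported here or drawn, though counts, medians and sums include them. Alternatives were DESeq2 size factors, no filter, the DESeq2 1.42.0 Wald test, a replicate block, separate fits of the lines, and fits that omit 1 library at a time, in which the single library left in a group takes its spread from the other groups. Promoters are from RefSeq and neighbours from its GRCh38.p14 table, and exon lengths and overlaps from GENCODE 29; all are of another build than hg19.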

Additional observations from a re-analysis of the deposited data

Results flagged for a closer look

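The change of TBX3 with both drugs against DMSO was greater in IMR5-75 than in Be(2)-C by 0.85 on the log2 scale, flagged because the test of the difference between the lines passed (edgeR, adjusted p = 0.00264). Both IMR5-75 libraries with both drugs lay above both DMSO libraries (45.5 and 40.4 against 24.8 and 18.8 CPM), from a level far under that of Be(2)-C (268 and 275 CPM in DMSO). The difference stayed called without each of the 8 libraries in turn, between 0.66 and 1.14.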

How the results depend on the processing

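Of 58 calls of named genes, 30 held without every library and under every other setting; over 511 alternative values 425 kept the call, 86 kept the direction only, and 0 reversed. For 30 further calls (other lists, overlapping genes, DLX4), 255 of 270 values kept the call and 0 reversed, and 141 of 162 counts of list genes stayed within 1.5 times. For most of these the cause was not tested, though a left-out library also leaves fewer samples. The 58 calls pool the comparison of the lines in DMSO, where most held throughout, with the drug comparisons, where most did not. Without the filter, counts of called members were 2 for DAC in Be(2)-C, 3 for EPZ in IMR5-75, 1 for both drugs against DAC and 1 against EPZ in Be(2)-C, 3 for both drugs against DAC in IMR5-75, 1 for the EPZ difference between lines and 3 for that of both drugs. The DESeq2 Wald test gave 1 for both drugs against DAC in each line and 1 against EPZ in Be(2)-C, where DESeq2 size factors also gave 1. In IMR5-75 the Wald test took adjusted p past 0.05 with DAC for DLX5 (0.0809), SIX4 (0.0741), NKX2-4 (0.0518) and GNB1L (0.0748), with both drugs for SIX6 (0.119), LHX2 (0.0988) and LHX1 (0.0567), and against EPZ for DLX2 (0.113) and DLX5 (0.0763). So did no filter for SIX4 with DAC (0.0986). Fitting each line alone gave 2 for DAC in Be(2)-C and 0 for EPZ in IMR5-75, and took past 0.05 SIX2 with both drugs in Be(2)-C (0.0517), and SIX4 with DAC (0.053) and TBX3 with EPZ (0.102) in IMR5-75. DESeq2 size factors moved the summed CPM of IMR5-75 with both drugs from 412.1 to 418.3. With the replicate block, counts were 1 for EPZ in Be(2)-C and 0 for EPZ in IMR5-75, and other counts stayed within 1.5 times. The block took adjusted p past 0.05 for NKX6-1 (EPZ, 0.0799) and SIX2 (both drugs, 0.0549) in Be(2)-C, and for SIX4 (DAC, 0.0761), DLX5 (DAC, 0.062, and both drugs against EPZ, 0.0579) and TBX3 (EPZ, 0.0722) in IMR5-75. Same-numbered libraries correlated between groups from -0.549 to 0.504, and no label pairs them. Leaving out each library gave 0 to 1 (DAC), 1 to 2 (EPZ) and 2 to 3 (both) calls in Be(2)-C, and 0 to 2 for both drugs against EPZ. In IMR5-75 it gave 4 to 10, 0 to 1 and 12 to 16, and 7 to 8 against EPZ. For differences between lines it gave 0 to 2 (DAC), 1 to 2 (both drugs) and 26 to 28 in DMSO. Depth limits the low members, since 23 of 60 were not tested.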
